A study of Arabidopsis thaliana with 28 samples.

Results

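The difference between hypocotyls and cotyledons in the response to 3 h of light was measured in dark-grown seedlings of Arabidopsis thaliana, accession Col-0. The response of an organ is its change from darkness on the scale of log2(FPKM + 1), and the difference is the response of hypocotyls minus the response of cotyledons. Of the 28 poly(A) RNA-seq libraries of the series, 8 entered this difference. They are 2 biological replicates, A and B, of hypocotyls after 3 h of light, hypocotyls in darkness, cotyledons after 3 h of light, and cotyledons in darkness. All 4 groups came from seedlings kept 7 days in the cold and 3 days in darkness after a light pulse of 1 h. The light was a simulated white light made with LEDs. Roots were removed, tissue was fixed in cold acetone before dissection, and the cotyledon samples kept the shoot apex. The dark samples were taken before the light began and no group was kept in darkness for the further 3 h, so the effects of light and of 3 h of further age or time of day cannot be told apart. The organs are mixtures of cell types, in which fewer cells of a type and less RNA per cell cannot be told apart.

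Light moves a seedling from growth in darkness, where the hypocotyl elongates and the cotyledons stay small and closed, to growth in light, where the hypocotyl slows and the cotyledons expand, open and green. Phytochrome and cryptochrome photoreceptors act by removing PIF transcription factors and by stabilising HY5. Small auxin up RNA (SAUR) proteins promote cell expansion by keeping plasma membrane proton pumps active, and xyloglucan endotransglucosylase/hydrolases (XTH) and expansins loosen the wall.

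Under the same light, most called SAUR, XTH, expansin and aquaporin genes had the lower response in hypocotyls, and most called genes of photosynthesis and of reserve use had the higher one. Among 18678 genes that averaged 1 FPKM or more, 5419 (29.0%) were called for the difference, at an adjusted p under 0.05 in limma and a difference of at least 1 on the log2 scale. In 2899 of them (15.5% of those tested) the response of hypocotyls was the higher one, and in 2520 (13.5%) it was the lower one. In hypocotyls alone 3955 genes (21.2%) were called against darkness, 2307 up and 1648 down. In cotyledons alone the count was 4485 (24.0%), with 2440 up and 2045 down. These balances depend on the scaling. After rescaling to equal sums of nuclear genes of 500 nt or longer, cotyledons had 1486 up and 3479 down and the difference had 4797 higher (75.6%, against 53.5%) and 1546 lower, around a median of 0.45 over all genes. With a pseudocount of 5 FPKM the difference had 1773 higher and 1823 lower. Across the 18678 genes the responses of hypocotyls and of cotyledons, which share no library, had a Pearson r of 0.405 and a Spearman rho of 0.329. This is a description across genes, which are not independent replicates. The median difference of all genes was 0.06. A signed value in parentheses after a gene is its difference, hypocotyl response minus cotyledon response, on the log2(FPKM + 1) scale.

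Among the 5419 genes, the most frequent pattern was a fall in cotyledons with no call in hypocotyls, in 1126 genes. A rise in cotyledons alone was called in 836, a rise in hypocotyls alone in 786 and a fall in hypocotyls alone in 766. Another 1067 genes passed the test of the difference while neither organ alone was called. Of 1045 genes that rose in both organs, 288 rose more in hypocotyls and 121 more in cotyledons. Of 444 that fell in both, 67 fell more in hypocotyls and 108 more in cotyledons. Opposite directions were called in 254 genes. Of these, 175 fell in hypocotyls and rose in cotyledons and 79 rose in hypocotyls and fell in cotyledons.

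**Figure D1:**
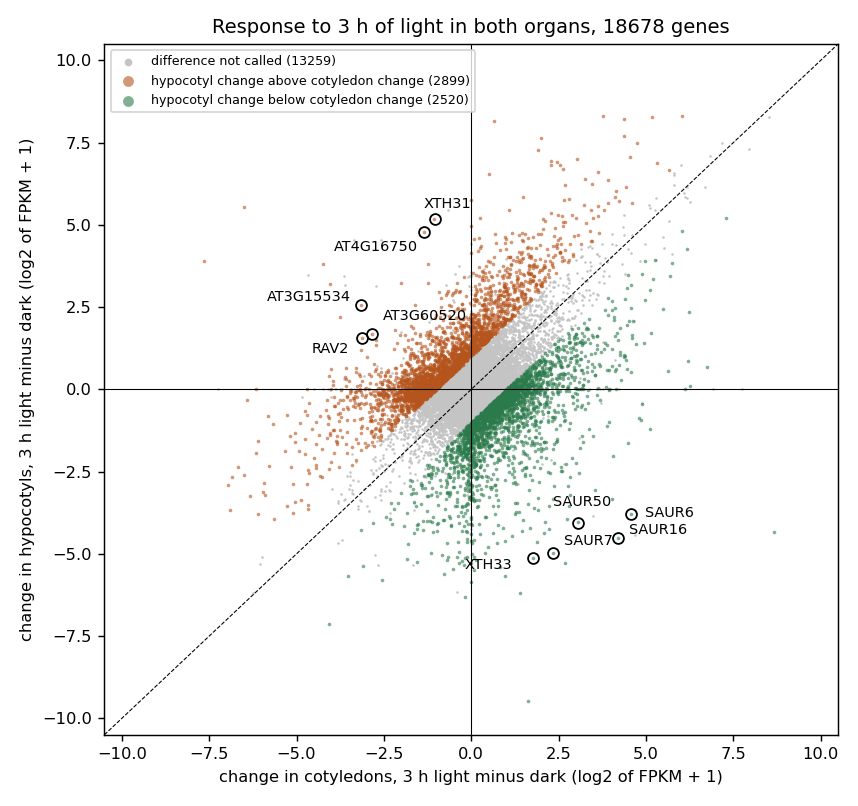
Each point is 1 of 18678 genes, with its change after 3 h of light in cotyledons on the horizontal axis and in hypocotyls on the vertical axis, both on the log2(FPKM + 1) scale. Coloured genes were called for the difference (2899 above the dashed line of equal response, 2520 below it), and the circled genes are the 5 with the largest difference in each class of opposite direction.

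The organs themselves differed in 8297 genes (44.4%) after 3 h of light and in 8318 (44.5%) in darkness. Of the 5419 genes, 3114 (57.5%) had a smaller gap between the organs after 3 h of light than in darkness, against 9713 (52.0%) of all genes tested. The markers fixed for each organ were checked. Summed CASP1 to CASP5, ESB1 and MYB36, markers of the endodermis, stood at 2860 to 3180 FPKM in lit hypocotyls and 3010 to 3170 FPKM in dark hypocotyls. The same sum was 7.37 to 9.54 FPKM in lit cotyledons and 7.65 to 9.26 FPKM in dark cotyledons. The apex genes CLV3 and WUS were at 0 in all hypocotyl libraries. The sum of the 7 apex markers was 229 to 235 FPKM in lit hypocotyls, of which KNAT1 made up 225 and 232, 111 to 116 FPKM in dark hypocotyls, 28.7 to 34.6 FPKM in lit cotyledons and 28.9 to 33.7 FPKM in dark cotyledons. The 7 root markers summed to at most 0.239 FPKM in any library. The relative depth of the 8 libraries ran from 0.673 to 1.51, and summed FPKM was 1041000 and 1038000 in lit cotyledons, against 774100 to 853000 in the 4 dark libraries and 816400 to 846300 in lit hypocotyls.

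The 254 genes of opposite direction were led by SAUR genes. SAUR16 (AT4G38860), which like other SAUR genes promotes cell expansion, had 4.52 and 6.48 FPKM in lit hypocotyls, against 142 and 152 FPKM in dark hypocotyls. In cotyledons it had 51.2 and 53.7 FPKM after 3 h of light and 2.17 and 1.66 FPKM in darkness. It thus fell by 4.52 on the log2 scale in hypocotyls and rose by 4.2 in cotyledons, with no overlap between light and darkness in either organ, and the difference was -8.72 (SE 0.332, adjusted p = 2.37e-13). SAUR6 (AT2G21210) had 6.86 and 5.29 FPKM in lit hypocotyls and 88.3 and 103 FPKM in dark ones, and 160 and 126 FPKM in lit cotyledons against 3.38 and 7.30 FPKM in dark ones (difference -8.35, SE 0.379, adjusted p = 7.2e-12). SAUR50 (AT4G34760) had 14.2 and 18.3 FPKM in lit hypocotyls, 279 and 286 FPKM in dark hypocotyls, 123 and 131 FPKM in lit cotyledons and 15.4 and 13.7 FPKM in dark cotyledons (difference -7.09, SE 0.352, adjusted p = 1.66e-11). In each of these genes the dark hypocotyl and the lit cotyledon were the high groups. SAUR7 (AT2G21200), the neighbour of SAUR6, shares 15.0% of its 50-nt stretches with other genes, and its difference was -7.30 (SE 0.467, adjusted p = 2.6e-10). XTH33 (AT1G10550), a wall-modifying enzyme, had 0.707 and 0.799 FPKM in lit hypocotyls and 61.2 and 60.2 FPKM in dark hypocotyls. In cotyledons it had 11.1 and 13.8 FPKM in light and 3.24 and 2.60 FPKM in darkness, which gave a difference of -6.92 (SE 0.369, adjusted p = 1.21e-11).

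The reverse pattern was led by XTH31 (AT3G44990), another XTH gene. It had 965 and 730 FPKM in lit hypocotyls, against 20.5 and 24.5 FPKM in dark hypocotyls. In cotyledons it had 66.7 and 72.3 FPKM in light and 155 and 135 FPKM in darkness. The rise in hypocotyls was 5.17, the fall in cotyledons was close to the limit of 1 used for a call, and the difference was 6.22 (SE 0.261, adjusted p = 3.43e-13). RAV2 (AT1G68840), a transcription factor that represses flowering, had 71.2 and 70.8 FPKM in lit hypocotyls and 21.9 and 25.4 FPKM in dark ones. In cotyledons it had 8.11 and 10.3 FPKM in light, against 85.7 and 88.1 FPKM in darkness (difference 4.67, SE 0.194, adjusted p = 2.36e-13). The lit hypocotyls and dark cotyledons were thus the high groups of RAV2. AT4G16750 rose in hypocotyls by 4.77 and fell in cotyledons by 1.34 on the log2 scale, and AT3G60520 rose by 1.67 in hypocotyls and fell by 2.85 in cotyledons. AT3G15534 was listed at 0 in both dark hypocotyl and both lit cotyledon libraries, with 4.15 and 5.84 FPKM in lit hypocotyls and 10.1 and 6.21 FPKM in dark cotyledons. Scaled by relative depth, its values were small whole multiples of a common amount, so they rest on few reads. All 10 genes remained called in both organs with the same directions after quantile normalization (10 of 10) and after rescaling to equal sums of nuclear genes (10 of 10).

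**Figure D2:**
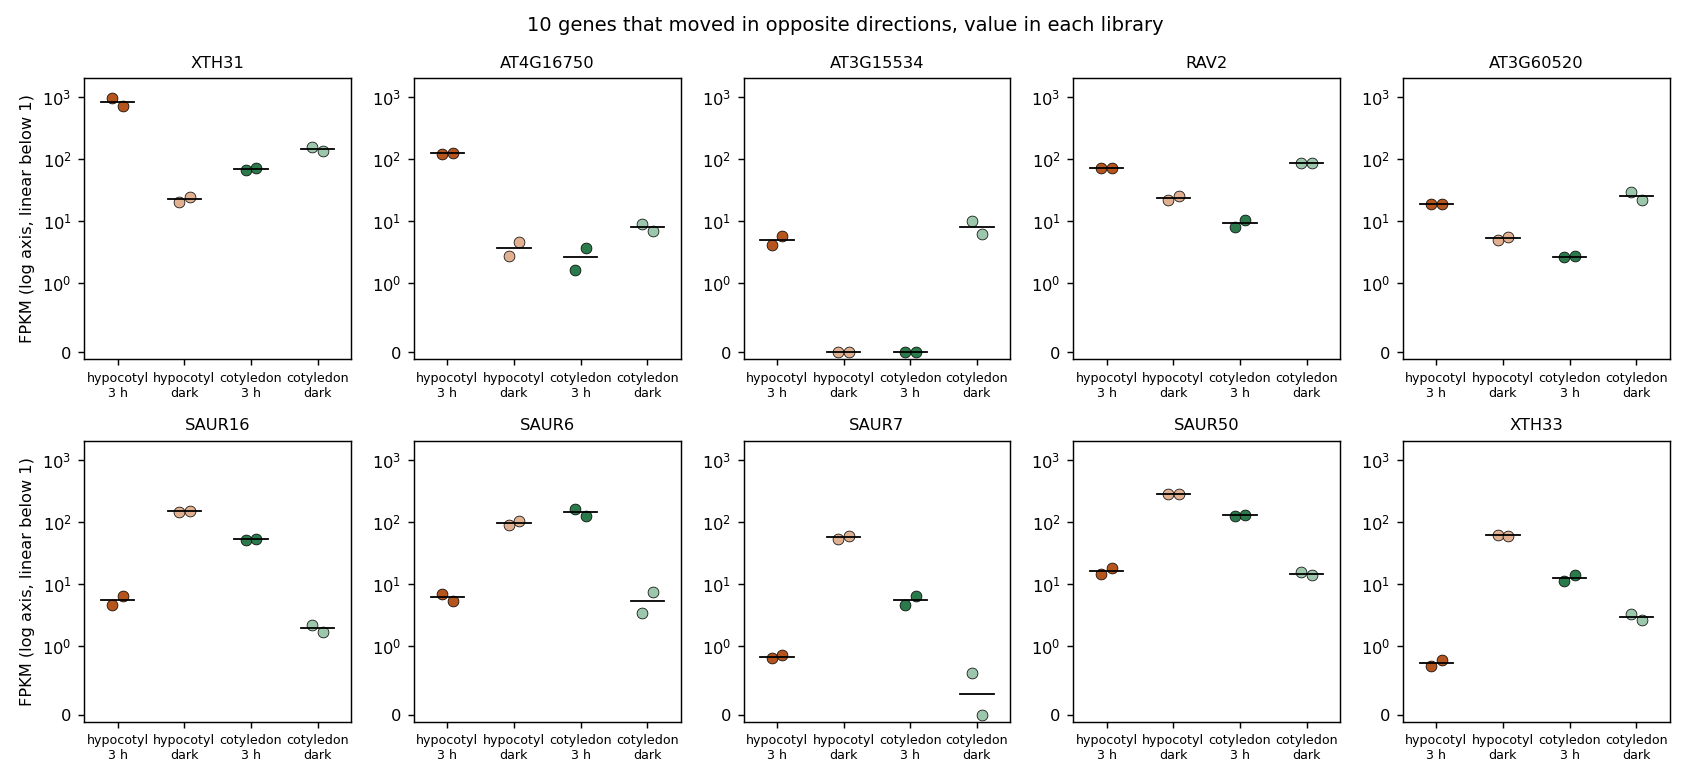
Each panel shows 1 gene, with FPKM on a log axis (linear below 1), 1 point per library and a bar at the mean of the 2 libraries of a group. In the upper row lit hypocotyls and dark cotyledons lie above dark hypocotyls and lit cotyledons, though in XTH31 and AT4G16750 dark cotyledons stay far below lit hypocotyls. In the lower row dark hypocotyls and lit cotyledons are the high groups.

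The stretches before the starts of 4 of the genes that fell in hypocotyls and rose in cotyledons, and of 2 with the reverse pattern, are shown because these genes carry the opposite responses. They are the 250 bases before the annotated gene start in RefSeq's TAIR10.1 assembly, read 5′ to 3′ along the gene's strand. Capitals mark matches, on either strand, to any of 10 motifs searched. SAUR16 is at chr4:18129987-18130236 (plus strand), SAUR6 at chr2:9086030-9086279 (minus strand), SAUR7 at chr2:9084804-9085053 (minus strand), SAUR50 at chr4:16583076-16583325 (minus strand), XTH31 at chr3:16448845-16449094 (minus strand) and RAV2 at chr1:25879905-25880154 (plus strand).
SAUR16: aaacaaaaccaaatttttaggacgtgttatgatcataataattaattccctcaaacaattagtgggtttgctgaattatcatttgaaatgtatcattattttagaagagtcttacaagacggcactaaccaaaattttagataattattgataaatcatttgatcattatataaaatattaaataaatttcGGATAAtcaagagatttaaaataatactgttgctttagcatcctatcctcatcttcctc
SAUR6: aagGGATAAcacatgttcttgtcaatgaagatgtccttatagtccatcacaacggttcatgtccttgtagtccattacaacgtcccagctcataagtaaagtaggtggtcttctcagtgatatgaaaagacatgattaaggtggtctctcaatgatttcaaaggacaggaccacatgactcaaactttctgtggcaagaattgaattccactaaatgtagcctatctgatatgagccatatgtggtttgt
SAUR7: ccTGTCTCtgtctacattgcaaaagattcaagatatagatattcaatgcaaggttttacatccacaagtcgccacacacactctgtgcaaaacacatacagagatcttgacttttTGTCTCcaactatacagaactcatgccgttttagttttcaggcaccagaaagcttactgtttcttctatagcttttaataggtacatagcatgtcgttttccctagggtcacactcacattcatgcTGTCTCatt
SAUR50: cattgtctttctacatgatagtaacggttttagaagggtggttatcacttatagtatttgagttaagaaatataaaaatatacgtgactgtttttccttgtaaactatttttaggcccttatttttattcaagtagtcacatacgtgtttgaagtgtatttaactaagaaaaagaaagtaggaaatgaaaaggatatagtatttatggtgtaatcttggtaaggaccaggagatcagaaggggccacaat
XTH31: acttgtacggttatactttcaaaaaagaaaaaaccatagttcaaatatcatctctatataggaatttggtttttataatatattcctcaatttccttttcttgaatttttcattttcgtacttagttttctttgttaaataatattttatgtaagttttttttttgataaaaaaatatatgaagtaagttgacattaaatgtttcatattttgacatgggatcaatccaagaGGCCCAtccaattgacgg
RAV2: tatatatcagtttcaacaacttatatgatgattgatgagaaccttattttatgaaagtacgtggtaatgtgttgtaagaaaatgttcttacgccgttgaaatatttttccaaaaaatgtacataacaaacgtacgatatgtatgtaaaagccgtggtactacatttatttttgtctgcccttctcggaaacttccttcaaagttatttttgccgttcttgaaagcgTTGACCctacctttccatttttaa
The motifs were CACGTG (G-box), AAATATCT (evening element), TGTCGG and TGTCTC (auxin response elements), GGATAA (I-box), AAACCCTA (telobox), GGCCCA (site II), TTCCCGC (E2F), GCCGCC (GCC box) and TTGACC (W-box), and no match of one overlapped a match of another in these 6 stretches. SAUR16 and SAUR6 hold 1 I-box each, SAUR7 holds 3 TGTCTC elements, XTH31 holds 1 site II and RAV2 holds 1 W-box. SAUR50 holds none of the 10 motifs in this window. A match is a description of these letters and not a site of binding.

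Over 300 bases, from 250 before to 50 after the start, of 17646 tested nuclear coding genes (exons of 500 nt or longer), a G-box stood in 8.99%. It stood in 19.0% of 284 such genes that rose in both organs but more in hypocotyls, in 16.2% of 105 that fell in both but more in cotyledons, in 13.8% of 116 that rose in both but more in cotyledons, in 18.1% of 72 that rose in hypocotyls and fell in cotyledons, and in 6.51% of 169 that fell in hypocotyls and rose in cotyledons. The telobox stood in 5.51% of all and in 9.95% of 814 that rose in cotyledons alone. Site II stood in 19.7% of all, in 18.2% of those 814, in 6.74% of 742 that fell in hypocotyls alone and in 4.14% of the 169. The I-box stood in 16% of all, in 20.7% of 2745 genes with a positive difference and in 13.5% of 2453 with a negative one. The TGTCTC element stood in 13.5% of all, in 15.2% of the 2453 and in 12.6% of the 2745. The evening element stood in 5.98% of all and the TGTCGG element in 5.78%, against 11.1% and 12.5% of the 72 genes that rose in hypocotyls and fell in cotyledons. In the same 72 the TGTCTC element went the other way, with 5.56% against 13.5% of all. The W-box (14% of all), the GCC box (2.57%) and the E2F site (1.57%) stood in 14%, 2.44% and 1.46% of genes with a positive difference and in 13.2%, 1.43% and 1.39% of those with a negative one. These shares are descriptions with no test.

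Among genes called in 1 organ alone, CIA2 (AT5G57180), a regulator of chloroplast protein import genes, rose in hypocotyls, where it had 105 and 107 FPKM in lit hypocotyls, against 1.87 and 1.86 FPKM in darkness. In cotyledons it had 141 and 139 FPKM in light and 105 and 131 FPKM in darkness (difference 4.97, SE 0.165, adjusted p = 1.47e-14). The lit hypocotyls thus reached the range of dark cotyledons and stayed below lit ones. GA2OX7 (AT1G50960), which inactivates gibberellin precursors, had 26.4 and 19.5 FPKM in lit hypocotyls and was listed at 0 in both dark ones, and in cotyledons it reached at most 0.109 FPKM. BGLU47 (a beta-glucosidase) and SP1L5 (a SPIRAL1-like microtubule protein) rose in hypocotyls alone by 4.59 and 4.13. AT3G29633, with 29.6 and 31.2 FPKM in lit hypocotyls, was listed at 0 in the other 6 libraries and also in both hypocotyl libraries at 1 h and at 6 h, and had 32.1 and 0 FPKM in the hypocotyl libraries at 12 h, so its replicates there disagreed. Scaled by relative depth, its values above 0 were equal, so they may rest on very few reads.

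Falls in hypocotyls alone included MIOX2 (AT2G19800), a myo-inositol oxygenase that feeds wall sugar synthesis. It had 4.66 and 4.01 FPKM in lit hypocotyls and 292 and 246 FPKM in dark ones, and 9.31 and 17.0 FPKM in lit cotyledons against 7.17 and 4.83 FPKM in dark ones (difference -6.64, SE 0.413, adjusted p = 6.59e-10). The rise of MIOX2 in cotyledons, 0.98, was just under the limit and was called after quantile normalization (1.01). SAUR64 and SAUR25 fell in hypocotyls by 5.39 and 6.32 on the log2 scale. RTFL13 and RTFL18, which encode ROTUNDIFOLIA-like small peptides, were listed at 0 in both lit hypocotyl libraries. RTFL13 had 615 and 826 FPKM in dark hypocotyls, 8.46 and 0 FPKM in lit cotyledons and 0 in dark cotyledons. RTFL18 had 65.0 and 21.8 FPKM in dark hypocotyls, 39.5 and 0 FPKM in lit cotyledons and 0 in dark cotyledons, so that its replicates in lit cotyledons disagreed, and its difference was not called in a fit of the 8 libraries alone. Scaled by relative depth, the values of RTFL13 and RTFL18 came in steps of several FPKM. The values of RTFL18 and the low ones of RTFL13 therefore rest on few reads.

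Rises in cotyledons alone were led by GNL (AT4G26150), a GATA factor that promotes chloroplast development. It had 0.159 and 0.0836 FPKM in lit hypocotyls and 0 and 0.0740 FPKM in dark ones, while lit cotyledons had 227 and 197 FPKM against 0.799 and 3.29 FPKM in dark cotyledons (difference -6.14, SE 0.408, adjusted p = 3.5e-10). AT4G29905 had 709 and 710 FPKM in lit hypocotyls and 482 and 413 FPKM in dark ones, and 433 and 495 FPKM in lit cotyledons against 2.84 and 3.86 FPKM in dark cotyledons. Here only dark cotyledons were low. SAUR78 (difference -5.66), the EXORDIUM-like gene EXL1 (-5.77) and AT5G62210 (-5.34) also rose in cotyledons with no call in hypocotyls. In hypocotyls SAUR78 had 132 and 120 FPKM in light, against 237 and 225 FPKM in darkness. AT5G62210 had 0.518 and 1.16 FPKM in lit hypocotyls and was listed at 0 in both dark ones, a low-level rise that was not called. EXL1 fell there by 0.92 on the log2 scale, and after quantile normalization its fall of 1.12 was called.

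Falls in cotyledons alone were led by BBX23 (AT4G10240), a B-box protein that promotes photomorphogenesis. It was listed at 0 in both lit hypocotyl libraries, had 0.576 and 0 FPKM in dark hypocotyls, and had 0.156 and 0.278 FPKM in lit cotyledons against 86.8 and 120 FPKM in dark cotyledons (difference 6.08, SE 0.270, adjusted p = 5.67e-13). SIS (AT5G02020) fell in cotyledons to 4.38 and 8.31 FPKM in light, against 433 and 361 FPKM in darkness, and SULTR3;5, a member of the sulfate transporter family, to 1.26 and 1.00 FPKM, against 47.0 and 58.6 FPKM. AT1G15840 fell by 5.27 on the log2 scale. These 3 genes were also lower in lit hypocotyls, with no call. SIS had 9.71 and 9.35 FPKM there, against 15.6 and 19.1 FPKM in dark hypocotyls. SULTR3;5 had 0.104 and 0.153 FPKM, against 0.346 and 0.658 FPKM. AT1G15840 had 0.121 and 0.0640 FPKM, against 0.675 and 1.13 FPKM, a low-level change that the pseudocount understates. AT3G25880 was listed at 0 in both lit cotyledon libraries, with 19.3 and 11.8 FPKM in dark ones. Scaled by relative depth, its values were whole multiples of a common amount, and they rest on few reads.

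Some genes changed the same way in both organs by unequal amounts. KIN2, a cold- and abscisic acid-induced gene, rose by 7.65 in hypocotyls and 2.00 in cotyledons. SOUL-1, a haem-binding protein gene whose exons overlap a gene on the other strand over 30.0% of their length, rose by 7.29 and 1.91. AT1G23205 and AT1G29640 rose more in cotyledons, with differences of -3.88 and -3.4. AT5G24580 and AT1G77330 fell more in hypocotyls (-3.84 and -3.69), and BBX17 and AT3G18530 fell more in cotyledons (4.64 and 4.54).

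Most SAUR genes differed between the organs in their response. Of 79 SAUR genes, 61 passed the filter and 51 were called for the difference, 44 with the lower response in hypocotyls and 7 with the higher one, against 29.0% of all genes called. The same 29.0% is the share to set beside each list count below. The median difference was -3.35 in the 61 genes and 0.06 in all genes. In hypocotyls 41 fell and 6 rose (median -3.03), and in cotyledons 25 rose and 8 fell (median 0.74). Of the 61, 14 fell in hypocotyls and rose in cotyledons, 21 fell in hypocotyls alone and 7 rose in cotyledons alone. SAUR11 (AT5G66260) belonged to the first of these sets, with 0 and 0.461 FPKM in lit hypocotyls, 84.5 and 90.6 FPKM in dark ones, 5.42 and 13.2 FPKM in lit cotyledons and 2.4 and 2.94 FPKM in dark ones. SAUR14 (AT4G38840), named after its values were seen, had 20.7 and 25.9 FPKM in lit hypocotyls and 50.7 and 59.9 FPKM in dark ones. It had 452 and 514 FPKM in lit cotyledons, the highest level of the 61 genes in these 8 libraries, against 13.3 and 12.4 FPKM in dark cotyledons. SAUR32 and SAUR33, also named after their values were seen, were the 2 members with the reverse direction. SAUR33 had 22.3 and 24.9 FPKM in lit hypocotyls, 4.40 and 4.33 FPKM in dark ones, 0.475 and 0 FPKM in lit cotyledons and 22.8 and 10.4 FPKM in dark ones (difference 5.96). Many SAUR genes are close copies in tandem. In 7 of the 61, at least 20% of 50-nt stretches occur in another gene, and among the other 54 the lower response in hypocotyls was called in 38.

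**Figure D3:**
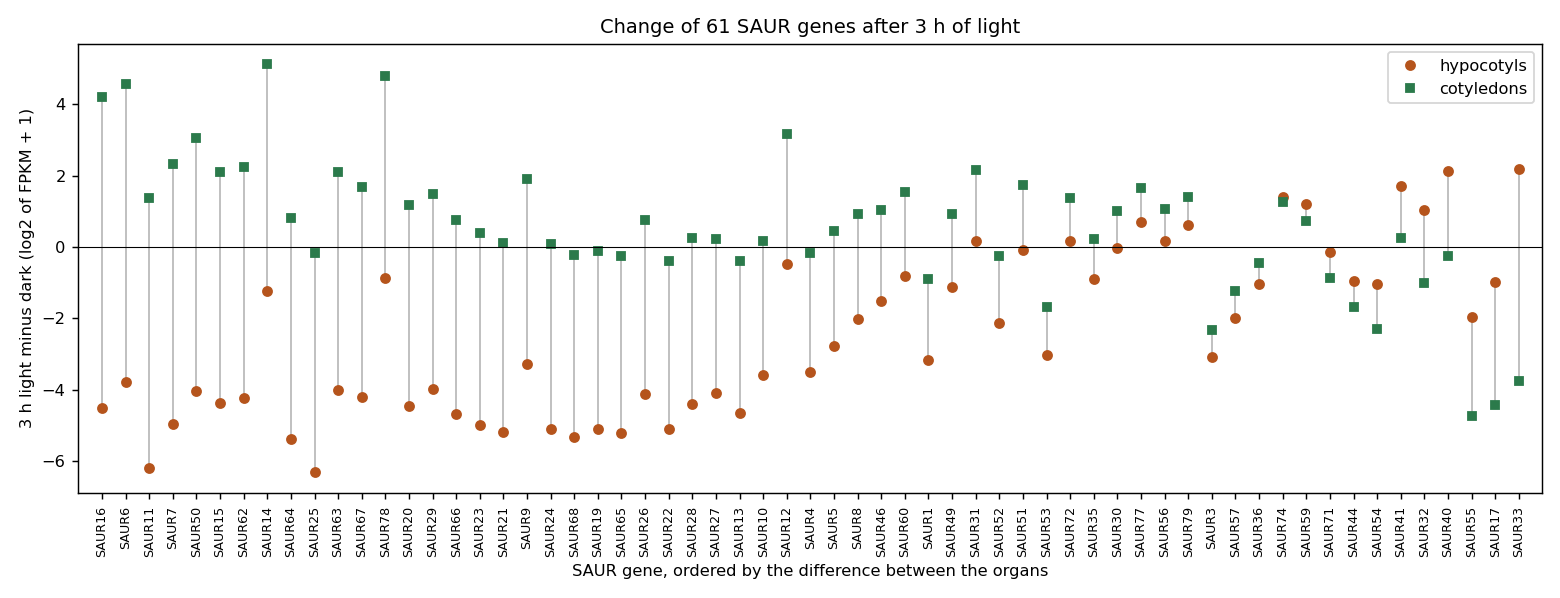
The 61 SAUR genes tested are ordered by the difference between the organs, and circles give the change in hypocotyls and squares the change in cotyledons after 3 h of light, on the log2(FPKM + 1) scale. At the left, circles lie near -4 and squares above 0 (SAUR16 at -4.52 and 4.2), and at the right the order turns (SAUR33 at 2.2 and -3.76).

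Aux/IAA and GH3 genes, which auxin induces, fell in hypocotyls in the larger number. Of 31 Aux/IAA repressor and GH3 conjugase genes tested, 19 were called, 17 with the lower response in hypocotyls and 2 with the higher one (median -1.14). In hypocotyls 16 fell and 1 rose, and in cotyledons 6 rose and 3 fell, or 3 rose and 10 fell after rescaling to equal sums of nuclear genes. IAA19 (AT3G15540) had 21.6 and 21.7 FPKM in lit hypocotyls and 567 and 583 FPKM in dark ones, and 4.49 and 4.01 FPKM in lit cotyledons against 9.28 and 6.13 FPKM in dark ones (difference -3.96, SE 0.270, adjusted p = 2.7e-10). IAA6 fell in hypocotyls to 0.349 and 0.883 FPKM, against 88.2 and 93.0 FPKM in darkness, and was at most 0.157 FPKM in cotyledons. IAA3 (difference -3.58) overlaps a gene on the other strand over 39.6% of its exons. GH3.17, which conjugates auxin to glutamate, rose in cotyledons to 43.5 and 49.8 FPKM, against 5.56 and 4.57 FPKM in darkness, and was not called in hypocotyls. Among 19 genes of auxin synthesis and transport 6 were called (31.6%, near the 29.0% of all genes), 2 higher and 4 lower in hypocotyls. TAA1, an auxin synthesis enzyme, and the efflux carrier PIN2 fell in hypocotyls by 2.93 and 2.71. ABCB4 fell more in cotyledons (difference 2.18), and TAR2 rose in cotyledons by 2.28.

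Wall-loosening and water channel genes had mostly the lower response in hypocotyls, as the SAUR genes did. Of 21 XTH genes tested 17 were called, 14 lower and 3 higher in hypocotyls, with a median difference of -2.59. In hypocotyls 10 fell and 5 rose, and in cotyledons 13 rose and 5 fell. XTH18 (AT4G30280) had 30.1 and 26.6 FPKM in lit hypocotyls and 371 and 338 FPKM in dark ones, with 1.46 and 6.14 FPKM in lit cotyledons and 0.284 and 0.116 FPKM in dark ones (difference -5.41). XTH19 fell in hypocotyls by 5.48 on the log2 scale. The 3 XTH genes with the higher response in hypocotyls were XTH31, XTH32 and XTH15, of which XTH32 and XTH15 were named after their values were seen. XTH32 had 450 and 298 FPKM in lit hypocotyls, 1.63 and 2.52 FPKM in dark ones, 82.2 and 104 FPKM in lit cotyledons and 16.5 and 15.8 FPKM in dark ones. XTH15 fell in both organs and more in cotyledons, and 31.6% of its exons overlap a gene on the other strand.

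Among 16 expansins tested 9 were called, 8 lower in hypocotyls and 1 higher (median -1.14). EXPA1 (AT1G69530) had 13.2 and 13.3 FPKM in lit hypocotyls and 36.1 and 38.0 FPKM in dark ones, against 357 and 399 FPKM in lit cotyledons and 35.7 and 30.1 FPKM in dark ones. It thus fell in hypocotyls and rose in cotyledons (difference -4.90, SE 0.197, adjusted p = 1.66e-13), as did EXPB1 (-4.49). EXPA8 fell in hypocotyls to 17.9 and 18.5 FPKM, against 439 and 482 FPKM in darkness, and EXPA5 rose in cotyledons by 3.88. All 12 called aquaporins of 19 tested had the lower response in hypocotyls (median -1.32). PIP2A (AT3G53420), a plasma membrane water channel, had 3000 and 2950 FPKM in lit hypocotyls and 3610 and 3410 FPKM in dark ones, while cotyledons had 478 and 586 FPKM in light and 72.1 and 67.4 FPKM in darkness. PIP1;4, the tonoplast channel DELTA-TIP and PIP1C fell in hypocotyls and rose in cotyledons, with differences of -3.87, -3.61 and -2.94. After quantile normalization or rescaling, the rises of DELTA-TIP and PIP1C in cotyledons came under the limit of 1. Genes of cellulose synthesis did not show such a difference at these limits. Of 10 genes of the primary wall 0 were called in limma (median 0.17), with differences between -0.47 and 0.41 and 2 of them at an unadjusted p under 0.05, and CTL1, the highest of them, differed by -0.22 (SE 0.197, adjusted p = 0.363). Of 20 secondary wall and xylem genes only MYB58 was called (1.56, or 0.72 with a pseudocount of 5 FPKM), and its exons are overlapped by a gene on the other strand over 100% of their length.

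Most genes of the antenna and the photosystems rose in both organs, and most of those called rose by the larger factor in hypocotyls. Of 20 light-harvesting antenna genes 14 were called, 12 with the higher response in hypocotyls and 2 with the lower one (median difference 1.55). With a pseudocount of 5 FPKM 10 were higher and 6 lower (median 0.88). With a pseudocount of 0.1 FPKM, after quantile normalization and after rescaling, 14 were higher and 1 lower each time. All 20 rose in hypocotyls (median 4.08) and 17 rose in cotyledons, but the levels in lit hypocotyls stayed below those in lit cotyledons by a median of 3.12 on the log2 scale. LHCB1.3 (AT1G29930) had 823 and 834 FPKM in lit hypocotyls, 47.1 and 63.8 FPKM in dark hypocotyls, 9110 and 7420 FPKM in lit cotyledons and 2740 and 4110 FPKM in dark cotyledons (difference 2.60, SE 0.288, adjusted p = 2.54e-07). LHCA5 and LHCB4.2 had differences of 2.86 and 2.51. LHCB1.5 had the largest difference of the list (3.84), but its exons overlap a gene on the other strand over 100% of their length. LHCB1.4 and LHCB4.3 were the 2 that rose more in cotyledons (-1.91 and -1.60), and were named after their values were seen.

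All 17 called photosystem subunit genes of 21, and all 13 called Calvin cycle genes of 15, had the higher response in hypocotyls (medians 1.68 and 2.11). In cotyledons 20 photosystem genes rose, or 10 after quantile normalization and 13 after rescaling. PSBR (AT1G79040), a photosystem II subunit, had 831 and 821 FPKM in lit hypocotyls and 24.8 and 35 FPKM in dark ones, and 3200 and 3110 FPKM in lit cotyledons against 1400 and 1430 FPKM in dark ones (difference 3.61, SE 0.188, adjusted p = 5.22e-12). PRK (AT1G32060), phosphoribulokinase of the Calvin cycle, had 127 and 116 FPKM in lit hypocotyls, against 5.47 and 4.88 FPKM in dark ones. In cotyledons PRK had 936 and 835 FPKM in light and 703 and 781 FPKM in darkness, so only the hypocotyl changed by the limit used (difference 4.06). GAPA, GAPB and the Rubisco small subunit gene RBCS3B had differences of 3.38, 3.03 and 2.79. PSBP-1 and PSBO2 differed by 2.01 and 1.96 (PSBO2 by 0.90 with a pseudocount of 5 FPKM), and PSAG by 2.05 with 61.4% of its exons overlapped on the other strand. Of 27 tetrapyrrole synthesis genes 9 were called, all with the higher response in hypocotyls (median 0.75). The share called, 33.3%, was near the 29.0% of all genes. CRD1, a cyclase of chlorophyll synthesis, had 333 and 314 FPKM in lit hypocotyls and 14.6 and 15.4 FPKM in dark ones, against 1750 and 1510 FPKM in lit cotyledons and 489 and 576 FPKM in dark ones. GUN4 differed by 2.99, with 73.0% of its exons overlapped on the other strand. PORA and PORB, the protochlorophyllide oxidoreductases of dark-grown tissue, instead fell in both organs and more in cotyledons. PORA had 0.529 and 0.149 FPKM in lit hypocotyls and 9.02 and 12.1 FPKM in dark ones, and 27.1 and 21.7 FPKM in lit cotyledons against 1360 and 1780 FPKM in dark ones. PORB had a difference of 3.36.

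Of 28 regulators of photomorphogenesis tested 10 were called, a share near the 29.0% of all genes, with 8 higher and 2 lower in hypocotyls (median 0.40), and 20 rose in each organ. HYH (AT3G17609), the homologue of HY5, had 234 and 251 FPKM in lit hypocotyls and 1.37 and 0.526 FPKM in dark ones, and 421 and 456 FPKM in lit cotyledons against 44.4 and 62.9 FPKM in dark ones (difference 3.97, SE 0.362, adjusted p = 4.84e-08). HY5 itself, named after its values were seen, had 249 and 253 FPKM in lit hypocotyls, 21.9 and 21.9 FPKM in dark ones, 146 and 159 FPKM in lit cotyledons and 76.4 and 88.6 FPKM in dark ones (difference 2.58). BBX30, a microprotein of the B-box family, had 69.6 and 79.0 FPKM in lit hypocotyls and was listed at 0 in dark ones, and had 9.32 and 14.5 FPKM in lit cotyledons against 0 and 0.304 FPKM in dark ones. GNL and BBX23, described above, were the members with the largest differences.

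Among 20 PIF and shade response genes 13 were called, 10 with the lower and 3 with the higher response in hypocotyls (median -1.01). In each organ 12 fell. HAT1 (AT4G17460), a shade-induced homeodomain factor, had 13 and 13.7 FPKM in lit hypocotyls and 159 and 179 FPKM in dark ones, and 4.35 and 4.45 FPKM in lit cotyledons against 4.13 and 3.4 FPKM in dark ones (difference -3.74, SE 0.237, adjusted p = 8.18e-11). ATHB4, of the same class, differed by -3.12. PIF8 rose in both organs and more in cotyledons, where it had 37.0 and 37.3 FPKM in light, against 0.560 and 0.381 FPKM in darkness. FHY1, which carries phytochrome A into the nucleus, fell in both and more in cotyledons (3.24). The PIF genes themselves, named after their values were seen, did not move together. PIF3 fell in cotyledons to 9.89 and 10.8 FPKM, against 68.4 and 67.6 FPKM in darkness, and was not called in hypocotyls (difference 2.84). PIF4 rose in cotyledons to 23.5 and 21.3 FPKM, against 2.32 and 2.97 FPKM in darkness (difference -2.22).

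Of 22 circadian clock genes 11 were called, 7 higher and 4 lower in hypocotyls (median -0.18), and 13 rose in each organ. ELF4 (AT2G40080), of the evening complex, had 99.5 and 127 FPKM in lit hypocotyls and 15.2 and 12.0 FPKM in dark ones, with 17.9 and 22.9 FPKM in lit cotyledons and 24.8 and 32.3 FPKM in dark ones (difference 3.43, SE 0.244, adjusted p = 4.06e-10). CHE, a repressor of CCA1, fell in hypocotyls and rose in cotyledons (-3.27), and PRR5 rose in hypocotyls and fell in cotyledons (2.63). LNK4 rose in both and more in cotyledons (-3.13).

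The flavonoid genes differed between the organs in both directions. Of 19 genes tested 17 were called, 8 higher and 9 lower in hypocotyls (median 0.54), while 11 rose in hypocotyls, 18 rose in cotyledons and 0 fell in either. With a pseudocount of 5 FPKM, which weighs low genes less, 7 were called, 1 higher and 6 lower (median 0.03). TT4 (AT5G13930), chalcone synthase at the entry of the pathway, had 321 and 338 FPKM in lit hypocotyls and 0 and 0.127 FPKM in dark ones, and 898 and 829 FPKM in lit cotyledons against 10.7 and 47.7 FPKM in dark ones (difference 3.1, SE 0.733, adjusted p = 0.00214). The difference of TT4 was not called with a pseudocount of 5 FPKM (1.13) or in a fit of the 8 libraries alone. LDOX (AT4G22880), a late anthocyanin enzyme, had 0.0836 and 0.132 FPKM in lit hypocotyls and 0 in dark ones, against 7.52 and 8.76 FPKM in lit cotyledons and 0 in dark ones (difference -3.04, SE 0.182, adjusted p = 3.53e-11). GSTF12, which carries anthocyanin to the vacuole, had a difference of -3.06, which was not called with a pseudocount of 0.1 FPKM (-2.34). The flavonol regulators differed in direction as well, and 2 of the 3 were named after their values were seen. MYB12 had 14.3 and 17.5 FPKM in lit hypocotyls and 2.60 and 3.52 FPKM in lit cotyledons, while MYB111 had 2.45 and 2.62 FPKM in lit hypocotyls and 57.7 and 53.8 FPKM in lit cotyledons. Their differences were 2.37 and -2.57, and MYB11 followed MYB111 (-2.86). Among 21 phenylpropanoid and lignin genes 9 were called, 2 higher and 7 lower in hypocotyls (median -0.82). PAL2, at the entry of the pathway, had 229 and 206 FPKM in lit hypocotyls and 83.6 and 84.8 FPKM in dark ones, and 218 and 218 FPKM in lit cotyledons against 12.0 and 16 FPKM in dark ones. CAD4 and 4CL3 also rose more in cotyledons (-2.24 and -2.07), and 4CL5 fell in cotyledons alone (2.17).

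**Figure D4:**
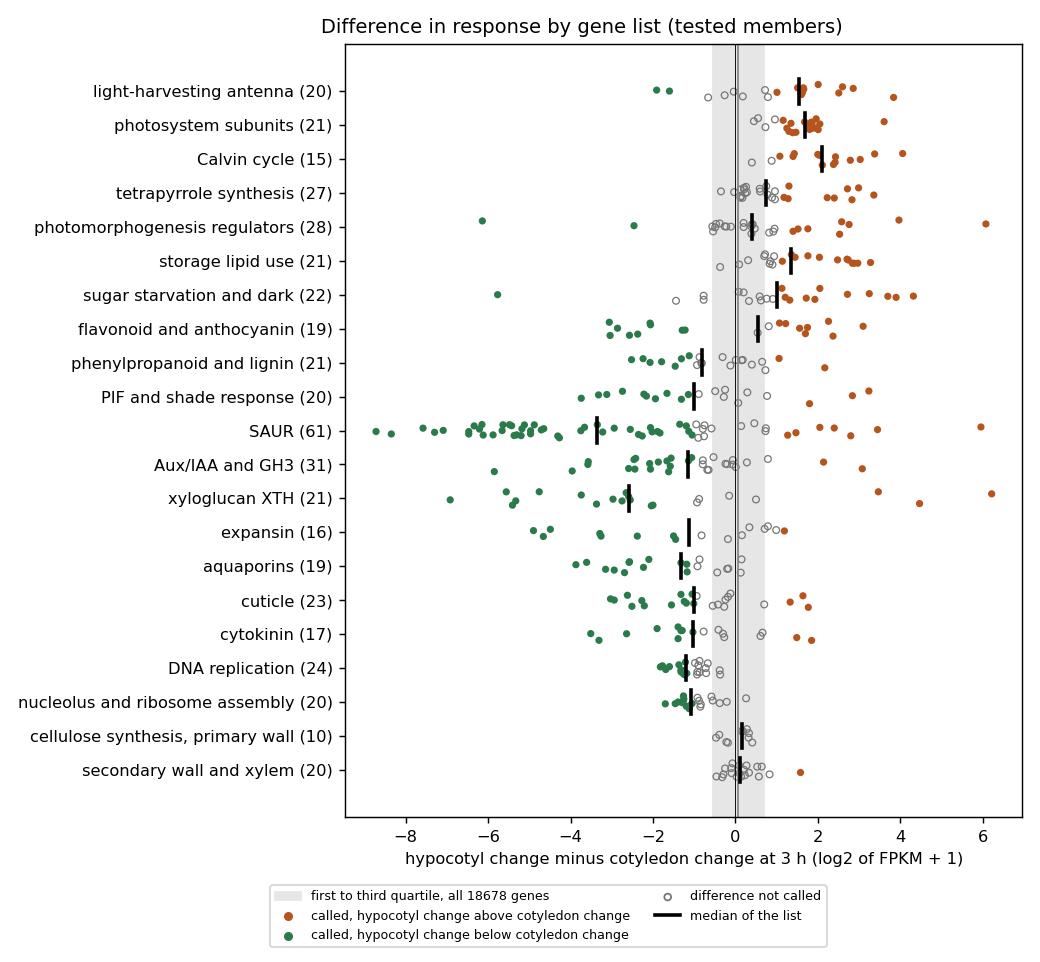
Each point is a tested member of a gene list, placed by the hypocotyl change minus the cotyledon change on the log2(FPKM + 1) scale, with filled points for called genes, a bar at the list's median and a grey band from the first to the third quartile of all genes. Photosynthesis and reserve lists lie to the right, SAUR (median -3.35) and XTH (-2.59) furthest to the left, and flavonoid genes on both sides.

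More genes of reserve use fell in cotyledons than in hypocotyls. Of 21 genes of storage lipid use 12 were called, all with the higher response in hypocotyls (median 1.36). In cotyledons 11 fell and 1 rose, and in hypocotyls 0 fell and 3 rose. ICL (AT3G21720), isocitrate lyase of the glyoxylate cycle, had 33.7 and 42.0 FPKM in lit hypocotyls and 63.6 and 70.3 FPKM in dark ones, and 241 and 208 FPKM in lit cotyledons against 3470 and 4240 FPKM in dark ones (difference 3.28, SE 0.264, adjusted p = 3.08e-09). MLS, malate synthase, and PCK1, of gluconeogenesis, also fell in cotyledons alone (2.97 and 2.88), while PMDH2, peroxisomal malate dehydrogenase, rose in hypocotyls alone (2.84). Among 22 sugar starvation genes 12 were called, 11 higher and 1 lower in hypocotyls (median 1.02). In cotyledons 19 of the 22 fell and in hypocotyls 12. DRM1 (AT1G28330), a dormancy-associated gene, had 155 and 139 FPKM in lit hypocotyls and 762 and 745 FPKM in dark ones, and 26.0 and 29.3 FPKM in lit cotyledons against 3210 and 2640 FPKM in dark ones (difference 4.32). BCAT-2, which degrades branched-chain amino acids, and EXL2 had differences of 3.9 and 3.7, and EXL1 was the member in the other direction. Of 23 nitrogen assimilation genes 13 were called, 7 higher and 6 lower (median 0.07). GLU1, ferredoxin-dependent glutamate synthase, had 111 and 100 FPKM in lit hypocotyls and 0.550 and 1.22 FPKM in dark ones, and 466 and 401 FPKM in lit cotyledons against 131 and 184 FPKM in dark ones. GDH2 and nitrate reductase NIA1 differed by 3.75 and 3.63, and G6PD3 rose in cotyledons alone (-3.55).

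Part of the genes of DNA replication and of the nucleolus rose in cotyledons, in a number that depends on the scaling. All 13 called replication genes of 24, and all 11 called nucleolus and ribosome assembly genes of 20, had the lower response in hypocotyls (medians -1.19 and -1.08). In hypocotyls 1 replication and 0 nucleolus genes rose, and in cotyledons 13 and 12. After rescaling to equal sums of nuclear genes 2 and 3 rose in cotyledons, and 4 and 2 were called for the difference, with 0 in the other direction. PCNA1 (AT1G07370), the sliding clamp, had 8.66 and 9.25 FPKM in lit hypocotyls and 10.3 and 9.82 FPKM in dark ones, and 27.6 and 33.6 FPKM in lit cotyledons against 9.05 and 10.7 FPKM in dark ones (difference -1.69, SE 0.213, adjusted p = 1.28e-06). CDT1A, RPA70B and ORC2 had differences of -1.82, -1.77 and -1.60, and with a pseudocount of 5 FPKM RPA70B (-0.99) and ORC2 (-0.71) came under the limit. FIB2, fibrillarin, had 8.09 and 8.15 FPKM in lit hypocotyls and 8.19 and 8.52 FPKM in dark ones, and 58.2 and 44.5 FPKM in lit cotyledons against 14 and 17.0 FPKM in dark ones. EBP1, NOP56 and NUC1 followed with -1.46, -1.39 and -1.29, and rescaling brought NOP56 (-0.94) and NUC1 (-0.83) under the limit. Of 35 cyclins and mitosis genes only 4 were called (1 higher, 3 lower, median 0.00), which is below the share of all genes, and after rescaling 6 were called (4 higher, 2 lower). They were CYCD6;1 (-2.51), SIM (1.58), AUR2 (-1.46) and SMR1 (-1.41, or -0.96 and not called after rescaling), each with 24.4% to 40.3% of its exons overlapped on the other strand. Of 20 stomatal lineage genes 7 were called, 2 higher and 5 lower in hypocotyls (median -0.39). The direction turned after rescaling (3 higher, 1 lower, median 0.03) and with a pseudocount of 0.1 FPKM (3 higher, 0 lower). SPCH, which starts the lineage, had 0.196 and 0.723 FPKM in lit hypocotyls and 0.204 and 0.0914 FPKM in dark ones, and 24.6 and 21.6 FPKM in lit cotyledons against 6.28 and 7.79 FPKM in dark ones. The difference of SPCH (-1.26) was not called after rescaling (-0.87), with a pseudocount of 0.1 FPKM (-0.67) or without replicate A of lit hypocotyls (-1.0). MUTE and EPF2 also rose in cotyledons alone. The difference of MUTE (-1.49) was not called with a pseudocount of 0.1 FPKM (-1.23) or 5 FPKM (-0.91). That of EPF2 (-1.47) was not called in 7 alternatives, with values of -1.57 to -0.96, among them rescaling and leaving out replicate B of lit hypocotyls (-0.99), replicate A of dark hypocotyls (-1.27), replicate B of lit cotyledons (-1.41) or replicate B of dark cotyledons (-0.96). ER, a receptor kinase, fell there (1.76). The sum of 7 stomatal markers was 3.92 to 3.99 FPKM in lit hypocotyls, 1.8 to 1.85 FPKM in dark hypocotyls, 120 to 136 FPKM in lit cotyledons and 46.1 to 70.4 FPKM in dark cotyledons, and its part in the replication and nucleolus results was not tested.

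Type-A response regulators, which cytokinin induces, rose in cotyledons alone in 4 named cases. Of 17 cytokinin genes tested 11 were called, 9 lower and 2 higher in hypocotyls (median -1.03), or 5 lower and 4 higher after rescaling. ARR7 (AT1G19050), one of them, had 1.23 and 1.68 FPKM in lit hypocotyls and 1.81 and 1.76 FPKM in dark ones, and 43.0 and 47.4 FPKM in lit cotyledons against 3.98 and 3.24 FPKM in dark ones (difference -3.51, SE 0.294, adjusted p = 4.35e-09). ARR16, ARR15 and ARR4 had differences of -3.31, -2.64 and -1.90. Of 18 gibberellin genes 11 were called, 5 higher and 6 lower (median -0.01), or 8 higher and 5 lower after rescaling. GA20OX1 and GA3OX1, which make active gibberellins, fell in hypocotyls by 3.78 and 2.29, and GA3OX1 rose in cotyledons by 1.06, or 0.69 and not called after rescaling. GA2OX6, an inactivating enzyme, fell in cotyledons alone (3.04). Of 13 brassinosteroid genes 6 were called, 2 higher and 4 lower (median -0.05). BAS1, which inactivates brassinosteroids, and the receptor BRI1 fell in hypocotyls alone (-2.82 and -1.65), as did SOB7 (-2.93, with 34.7% of its exons overlapped on the other strand), and CPD, a synthesis enzyme, fell in cotyledons alone (2.71). Of 19 ethylene genes 11 were called, 7 higher and 4 lower (median 0.35). HLS1 (AT4G37580), needed for the apical hook, had 0.133 and 0.196 FPKM in lit hypocotyls and 0.259 and 0.694 FPKM in dark ones, and 1.62 and 1.66 FPKM in lit cotyledons against 31.5 and 33.6 FPKM in dark ones. The synthesis genes ACS5, ACS11 and ACO4 fell in hypocotyls, ACS5 in both organs (-2.84, -2.25 and -2.66), and the difference of ACS5 was not called with a pseudocount of 0.1 FPKM (-0.75). Of 20 jasmonate genes 7 were called, 5 higher and 2 lower (median 0.01). JAZ4, a repressor, rose in hypocotyls by 2.74, the synthesis genes AOC2 and AOC3 had differences of 1.21 and -1.25 that were called with neither a pseudocount of 0.1 nor of 5 FPKM, and MYC2 (2.19) is overlapped on the other strand over 98.5% of its exons.

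Of 23 cuticle genes tested 15 were called, 3 higher and 12 lower in hypocotyls (median -1.01). KCS1, of very long chain fatty acid synthesis, had 325 and 268 FPKM in lit hypocotyls and 622 and 612 FPKM in dark ones, and 84.9 and 115 FPKM in lit cotyledons against 38.3 and 28.2 FPKM in dark ones (difference -2.62). CER60 and LTPG1 also fell in hypocotyls and rose in cotyledons (-2.94 and -2.51). LTPG1 was called in neither organ after quantile normalization (-0.87 in hypocotyls, 0.86 in cotyledons) and not in hypocotyls after rescaling. CER4 fell in hypocotyls alone (-3.03). Of 20 touch and rapid stress genes 8 were called, 3 higher and 5 lower (median -0.01). TCH4 (also XTH22) had 39.2 and 33.3 FPKM in lit hypocotyls and 52.0 and 46.3 FPKM in dark ones, and 243 and 274 FPKM in lit cotyledons against 8.60 and 6.91 FPKM in dark ones (difference -5.33). TCH2 rose in cotyledons alone (-3.85), TCH3 fell in hypocotyls alone (-2.14) and ERF104 fell in cotyledons alone (2.26). Of 17 heat shock genes 8 were called, 6 higher and 2 lower (median 0.12), with differences of 3.14 in HSP22.0, a small heat shock protein, 2.34 in GOLS1, a galactinol synthase, 1.77 in the heat shock factor HSFA7A and -1.45 in the factor HSFA2. Of 15 glucosinolate genes 4 were called (26.7%, below the 29.0% of all genes), all higher (median 0.30). They were the synthesis enzymes CYP79B3 (2.14) and CYP79B2 (1.37) and the regulators MYB28 (2.06) and MYB51 (1.71, or 0.79 with a pseudocount of 5 FPKM).

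Tissue identity lists had shares of calls below that of all genes, apart from those of 3 genes or fewer tested and the stomatal list. Of 14 endodermis and suberin genes 2 were called, the Casparian strip receptor kinase SGN3 (2.00) and the suberin enzyme ASFT (1.51). Of 29 shoot apex and leaf polarity genes 7 were called, 3 higher and 4 lower (median 0.01), or 6 higher and 3 lower after rescaling. TCP10 rose in cotyledons to 89.8 and 81.6 FPKM, against 15.2 and 16.8 FPKM in darkness, and was at most 1.01 FPKM in hypocotyls. AS1 rose in hypocotyls (1.8), TCP24 fell in hypocotyls (-1.77), and STM had a difference of 1.56 with no call in either organ alone. With a pseudocount of 5 FPKM the differences of TCP24 (-0.96) and STM (0.83) were not called. Of 3 root list genes tested only FER, a receptor kinase active in many tissues, was called (-1.41, or -0.96 after rescaling). The 1 seed list gene tested, LEA4-5, had 38.9 and 31.8 FPKM in lit hypocotyls, 4.28 and 7.24 FPKM in dark ones, 0.528 and 2.02 FPKM in lit cotyledons and 0.123 and 0 FPKM in dark ones. Its difference of 1.43 (SE 0.545, adjusted p = 0.0339) changed sign with a pseudocount of 0.1 FPKM (-0.32), and was not called without 1 of 5 of the 8 libraries in turn (replicate A of each group, or replicate B of dark cotyledons).

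Of 11 genes often used as references for expression 4 were called (36.4%, against 29.0% of all genes), all with the lower response in hypocotyls (median -0.54). ACT2 (AT3G18780), an actin gene, had 555 and 621 FPKM in lit hypocotyls and 1360 and 1230 FPKM in dark ones, and 841 and 797 FPKM in lit cotyledons against 354 and 367 FPKM in dark ones (difference -2.32, SE 0.129, adjusted p = 1.36e-11). ACT7 and TUA4 fell in hypocotyls alone (-1.81 and -1.65), and GAPC2 rose in both and more in cotyledons (-1.18). After rescaling to equal sums of nuclear genes, ACT2 still fell in hypocotyls but its rise in cotyledons came under the limit (0.76), GAPC2 was no longer called (-0.72, nor without replicate A of lit cotyledons, -0.98), and the median of this list came to -0.08. The majority direction among called genes stayed the same under that rescaling and under quantile normalization in the SAUR, XTH, Aux/IAA, aquaporin, expansin, cuticle, photosynthesis, storage lipid, starvation, replication and nucleolus lists. It turned under the rescaling in the stomatal (3 higher, 1 lower), gibberellin (8 higher, 5 lower), cyclin (4 higher, 2 lower) and shoot apex (6 higher, 3 lower) lists and in the flavonoid list (8 higher, 7 lower), and was even in the touch (4 and 4) and auxin synthesis (3 and 3) lists.

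The same genes at the other times, which share the dark libraries with the values at 3 h, are given side by side. The difference of SAUR16 was -2.56 at 15 min, -4.66 at 30 min, -5.13 at 1 h, -8.72 at 3 h, -9.05 at 6 h and -8.23 at 12 h. SAUR50 had -0.61, -2.42, -2.95, -7.09, -6.37 and -5.97 at the same times. SAUR16 was called at 15 min, while SAUR50 was not (adjusted p = 0.769 in limma), and both had their largest difference at 3 h or 6 h. XTH31 had 0.18, 0.61, 1.33, 6.22, 6.91 and 5.97, with the step between 1 h and 3 h. In hypocotyls XTH31 had 23.2 and 31.5 FPKM at 1 h of light, 965 and 730 FPKM at 3 h and 1530 and 1650 FPKM at 6 h. RAV2 had differences of 1.37, 2.97, 4.64, 4.67, 2.48 and 1.82, so that it was highest at 1 h and 3 h. CIA2 had 1.2, 2.86, 3.19, 4.97, 3.71 and 3.94, and GNL had -0.07, -2.29, -5.28, -6.14, -4.43 and -2.73. MIOX2 continued to part after 3 h (-0.33, -0.95, -2.22, -6.64, -7.86 and -9.34), since in cotyledons it stood at 9.31 and 17.0 FPKM at 3 h and at 546 and 459 FPKM at 12 h.

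**Figure D5:**
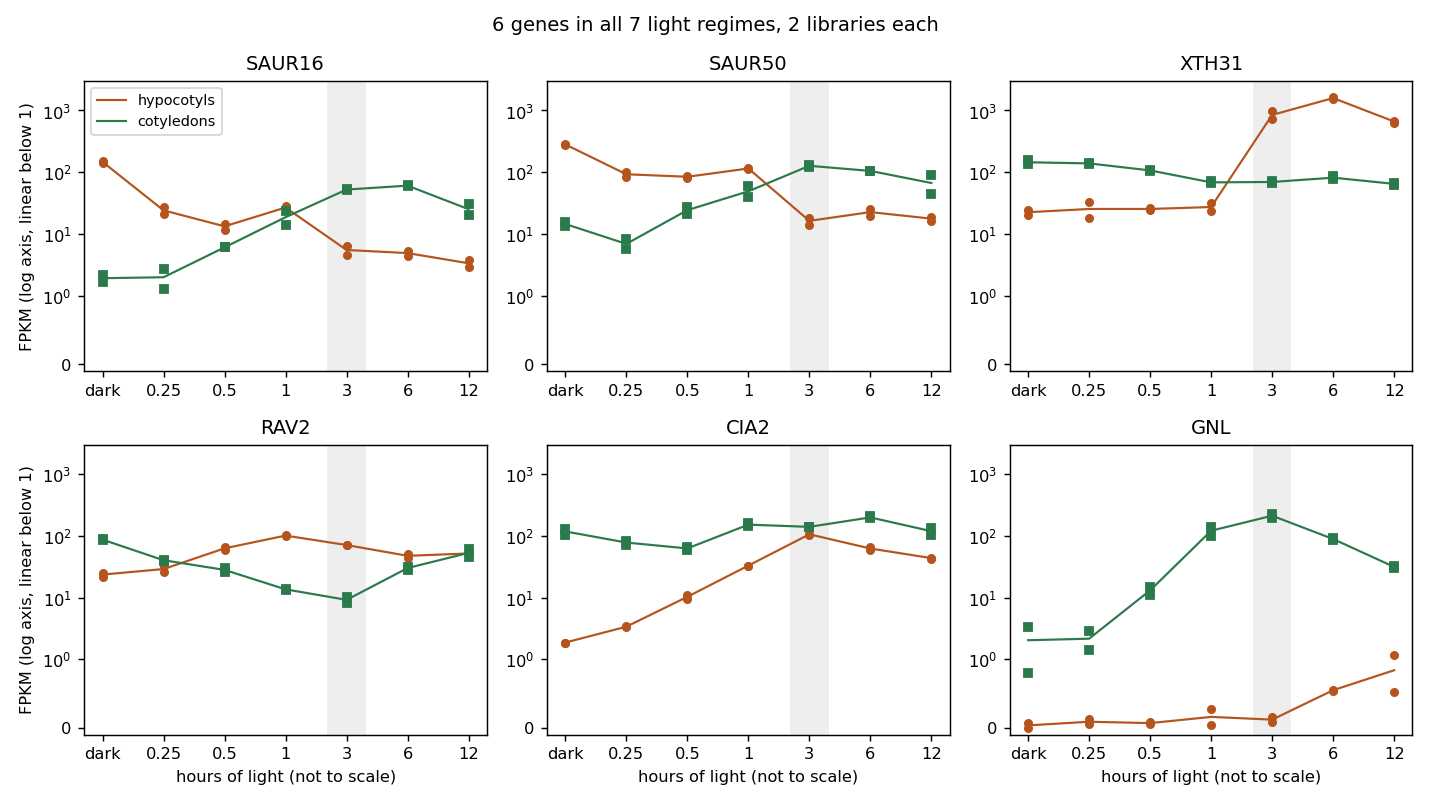
FPKM on a log axis (linear below 1) against hours of light (not to scale), with a line through the means and 1 point per library, for hypocotyls (circles) and cotyledons (squares). The grey band marks 3 h, where SAUR16 and SAUR50 are lower in hypocotyls than in cotyledons after the reverse order in darkness, and where XTH31 in hypocotyls has reached 965 and 730 FPKM.

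In the authors' deposited table of comparisons, 15812 of the tested genes had values. By q under 0.05 and a change of at least 1 computed from that table's means, it held 3446 changed genes in hypocotyls at 3 h (2003 up, 1443 down) and 3747 in cotyledons (2027 up, 1720 down). Of these, 3378 and 3680 were also called here, with 0 in the opposite direction.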

How the data were processed

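The deposited table holds FPKM values, which the authors obtained with Cuffnorm (no version given) after CASAVA 1.8.2 and TopHat2 2.0.8, per the submitters' processing notes, which also name TAIR10 and Cuffdiff 2.1.1. The authors' second deposited table holds mean FPKM and q-values and was only compared. RNA was extracted with a column kit and libraries were made with TruSeq v2, per the labels. Titles call the libraries stranded, while whether counting took strand into account is not given in these sources, so genes overlapping on opposite strands are uncertain. P-values measure the spread between 2 samples a group, which the labels call biological replicates. Of 33557 loci 32810 matched RefSeq's TAIR10.1, which gave lengths, overlaps and the shares of 50-nt stretches found in another gene.

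Values were used as log2(FPKM + 1) for 18678 genes that averaged 1 FPKM or more across all 28 libraries. With limma 3.58.1 (R 4.3.3), 1 linear model of 14 group means was fitted, leaving 14 residual degrees of freedom (eBayes, trend and robust), so the spread rests on all 14 groups. The pseudocount understates changes of low genes. P-values were adjusted by Benjamini-Hochberg over all genes, and calls also needed a change of at least 1. No read totals were used. Depth was taken from the steps between low values. Of 18968 such values 80.3% lay within 0.1 of whole reads, against 20.0% if even, and 1 FPKM of a 1500-nt gene was about 15.56 reads at average depth. No pair of libraries was identical (0 pairs). On simulated differences 69 of 76 genes changed by 1.5, 53 of 57 by 2 and 66 of 67 by 3 (log2) were recovered, with 2 false calls. The changed genes all lay above 2 on the log2(FPKM + 1) scale in dark hypocotyls, and no shift of scaling between organs was simulated. The simulation therefore cannot speak for recovery of genes near 0 or for the effect of scaling.

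The genes and the 38 lists (923 members matched, 24 not) were chosen with earlier results of these data known. Genes named for a pattern were nuclear coding, of at least 500 nt in TAIR10.1 and with 1 sign in both replicates. The lengths behind the deposited FPKM are not given. The steps of RTFL13, RTFL18, AT3G15534 and AT3G25880 are wider than 500 nt would give, so this filter did not keep out all genes of few reads. In each pattern called in 1 organ or in opposite directions, they were the 5 with the largest difference. In each pattern shared by both organs, they were the 2 with the largest difference. Up to 4 called members a list, those with the largest difference, were named without these filters. Where a list had no called member, its highest one was named. Exceptions are marked. Replicate letters were not used to pair the samples, and whether same-lettered samples of both organs share seedlings was not established. The alternatives were other pseudocounts, filters, scalings, fits and replicate blocks, and each library left out. Tables and figures were made with pandas 2.3.3 and matplotlib 3.10.9 under Python 3.11.15.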

Additional observations from a re-analysis of the deposited data

Results flagged for a closer look

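The 10 genes named for opposite directions were picked out because the responses of the organs differed in the test of the difference itself and both libraries of each organ moved against those of the other. With the higher response in hypocotyls these were XTH31 (6.22), AT4G16750 (6.11), AT3G15534 (5.73), RAV2 (4.67) and AT3G60520 (4.52). With the lower response in hypocotyls these were SAUR16 (-8.72), SAUR6 (-8.35), SAUR7 (-7.30), SAUR50 (-7.09) and XTH33 (-6.92). The values are differences on the log2(FPKM + 1) scale. That of AT3G15534 rests on few reads.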

How the results depend on the processing

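Leaving out each of the 8 libraries in turn gave 5358 to 5570 genes for the difference, against 5419. A pseudocount of 5 FPKM gave 3596 for the difference (1773 higher), and 2935 for cotyledons (1226 lower), with 3512 of the 5419 genes called in the same direction. Rescaling to equal sums of nuclear genes of at least 500 nt gave 4797 higher and 1546 lower for the difference, and 1486 higher and 3479 lower for cotyledons. The cause was not tested. Quantile normalization called 4845 of the 5419 genes in the same direction. With the adjusted p alone and no limit on the change, the counts were 10361 (5549 higher, 4812 lower) for the difference, 9877 (5289, 4588) for hypocotyls, 11591 (6156, 5435) for cotyledons, 14482 (7584, 6898) for hypocotyls against cotyledons at 3 h and 14532 (7447, 7085) in darkness. With a replicate block by letter 5413 genes were called, and with a replicate block by time and letter 5404. The second block cannot be fitted with the response of a single organ. Deviations of same-lettered samples of both organs correlated at -0.0715 to 0.0576 over all genes and at -0.121 to 0.103 over nuclear coding genes. Of 167 named genes, quantile normalization ended the call of the difference in 1, and rescaling in 7 of the 166 it could test. The calls in cotyledons, on which the patterns rest, changed more often. Quantile normalization ended 13 of them and added 2, and rescaling ended 15 and added 6. In hypocotyls quantile normalization ended 2 calls and added 1, and rescaling ended 1. Of the values of 167 named genes under the alternatives 3109 kept side and direction, 40 in 22 genes came under the limits, and LEA4-5 turned to -0.32 with a pseudocount of 0.1 FPKM. Low depth limits genes under about 1 FPKM. It also limits RTFL13, RTFL18, AT3G15534, AT3G25880 and AT3G29633, in which few reads gave a higher FPKM. Of 113 organelle genes 3 were called.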
